A study of Mus musculus with 9 samples.

Results

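The genes described here are 10 genes of the NRF2 pathway, Hmox1, Txnrd1, Gclc, Gclm, Gsr, Abcc1, Nqo1, Srxn1, Slc7a11 and Nfe2l2, taken by symbol from a table of 55011 genes. The RNA came from CD8 T cells, the killer lymphocytes of adaptive immunity, isolated from the spleen of wild-type mice. In all 9 libraries naive cells had been on plate-bound antibodies to CD3 and CD28 (4 µg/mL) for 6 h, which engages the T cell receptor complex and a costimulatory receptor. The 3 controls were left untreated, 3 libraries came from cells given 20 mM D-2HG and 3 from cells given 20 mM L-2HG, both from the start of stimulation. These compounds are the enantiomers of 2-hydroxyglutarate, of which the D form is made by mutant isocitrate dehydrogenases in tumours. The labels mention no vehicle and name no animal or culture for a replicate, and p-values therefore measure only the spread among these libraries, which may be technical.

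NRF2, encoded by Nfe2l2, is a transcription factor that KEAP1 marks for destruction in unstressed cells. Oxidants and electrophiles that react with KEAP1 let NRF2 accumulate, pair with a small MAF protein and bind antioxidant response elements in genes of glutathione synthesis, thioredoxin recycling, quinone and heme breakdown and conjugate export. BACH1, a repressor that heme releases from DNA, competes for some of the same elements, and Hmox1 is its best known target. Activated T cells use glutathione and thioredoxin to buffer the oxidants they make when they begin to grow.

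Promoter sequences were searched for the response element because it is what places a gene under NRF2. The search used TGACNNNGC, where N is any base, on both strands (GCNNNGTCA on the other), in windows from 250 bases before to 50 bases after each start site, taken from RefSeq on GRCm38.p6. Of the 10 genes 6 had such windows (8 in all), and Hmox1, Gclc, Gsr and Abcc1 had none in the table. The element was found in 4 of these 8 windows, 1 each of Txnrd1, Gclm, Srxn1 and Nfe2l2, against 12.4% of 32851 windows of all genes. No match was found in the windows of Slc7a11 and Nqo1 or in the other two of Txnrd1. Sequence outside the windows was not searched, so a window without a match does not show that the gene lacks the element. The sequences below show the matches 5′ to 3′ on the strand of the gene, in capitals. For Txnrd1, the gene among these with the clearest change, the stretch outside annotated exons around its match is given, and for the others 29 bases each.
Txnrd1 (chr10:82859009-82859178, plus strand): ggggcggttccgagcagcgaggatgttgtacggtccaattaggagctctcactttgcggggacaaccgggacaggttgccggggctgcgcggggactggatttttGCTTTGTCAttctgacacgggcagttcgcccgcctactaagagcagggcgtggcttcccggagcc
Gclm (chr3:122245413-122245441, plus strand): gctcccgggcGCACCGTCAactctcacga
Srxn1 (chr2:152105542-152105570, plus strand): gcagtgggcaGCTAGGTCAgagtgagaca
Nfe2l2 (chr2:75704885-75704913, minus strand): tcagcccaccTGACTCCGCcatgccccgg
Read on the other strand, the Txnrd1 match is TGACAAAGC, the Gclm match TGACGGTGC and the Srxn1 match TGACCTAGC. The matches start 92, 134 and 240 bases before the start site in Txnrd1, Gclm and Nfe2l2, and at base 29 of the transcript in Srxn1. A match describes the letters of the window and not the binding of a factor.

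Library totals ran from 1990896 to 5731885 counts in control, from 2431371 to 4139601 with D-2HG and from 562627 to 2562692 with L-2HG, where replicate 2 was the shallowest. The satellite repeat genes Gm10800 and Gm10801 (predicted) took 0.910% to 5.35% of counts in control, 3.79% to 17.0% with D-2HG and 6.71% to 24.4% with L-2HG. Control replicate 2, D-2HG replicate 3 and L-2HG replicate 2 had the highest share of their groups. Levels are given as CPM (counts scaled to a common library total) with TMM factors, and tests are edgeR's quasi-likelihood test on all 9 libraries, adjusted by Benjamini-Hochberg over the 10235 genes that passed a filter on low counts, with a threshold of 0.05. Of the 10 genes 9 passed that filter and Nqo1 did not. All 7 CD8 T cell markers had counts in each group. Their summed level was 3509 to 5776 CPM in control, 2891 to 3281 CPM with D-2HG and 2489 to 3707 CPM with L-2HG. With D-2HG 5 of the 7 fell (Cd8b1, Cd3e, Cd3g, Trac and Trbc2, by 0.63 to 0.89 on the log2 scale; edgeR adjusted p = 0.0138 to 0.0476), and with L-2HG 2 of them did (Trac by 0.85 and Trbc2 by 0.84; 0.0202 and 0.0208). Among all tested genes 10.5% fell with D-2HG and 8.38% with L-2HG by edgeR. The part of the marker shift in the results below was not tested. Fewer cells that express a gene and less RNA of it per cell cannot be told apart in such samples.

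With D-2HG, 5 of the 9 tested genes rose against control, Hmox1, Txnrd1, Gclc, Abcc1 and Gsr, and none fell (6 higher and 0 lower at an unadjusted p under 0.05; 4 and 0 by DESeq2, 7 and 0 by limma-voom). Over all tested genes, 11.8% rose with D-2HG and 22.3% passed in either direction by edgeR. DESeq2 called 903 of 10282 genes higher with D-2HG, and limma-voom 2976 of 10235. With L-2HG only Abcc1 rose by edgeR, where 9.48% of all tested genes did (17.9% in either direction), and none fell. At an unadjusted p under 0.05 by edgeR, 2 were higher and 1 lower. DESeq2 called 1 higher and 0 lower, and limma-voom 3 and 2. Over all genes DESeq2 called 667 higher and 1439 lower of 10282 with L-2HG, and limma-voom 2840 and 2341 of 10235. The share of all genes at an unadjusted p under 0.05 was not counted. In the test of D-2HG against L-2HG itself, Hmox1 was higher with D-2HG, as were 0.0489% of all tested genes (0.303% passed in either direction). The median log2 fold change of the 9 genes was 0.94 with D-2HG, 0.11 with L-2HG and 0.76 for D-2HG against L-2HG, beside 0.04, 0.05 and 0.01 over all tested genes. The comparisons with control share the same 3 control libraries. With D-2HG the CPM of 8 of the 9 genes lay wholly above the control range, as did 20.7% of all tested genes. For 7 of the 9 the D-2HG range lay wholly above the L-2HG range, as for 7.78% of all tested genes, and for none wholly below it, as for 8.13%. With L-2HG the range of 1 gene, Abcc1, lay above control (16.4% of all tested genes) and that of 1, Srxn1, below (14.8%).

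**Figure D1:**
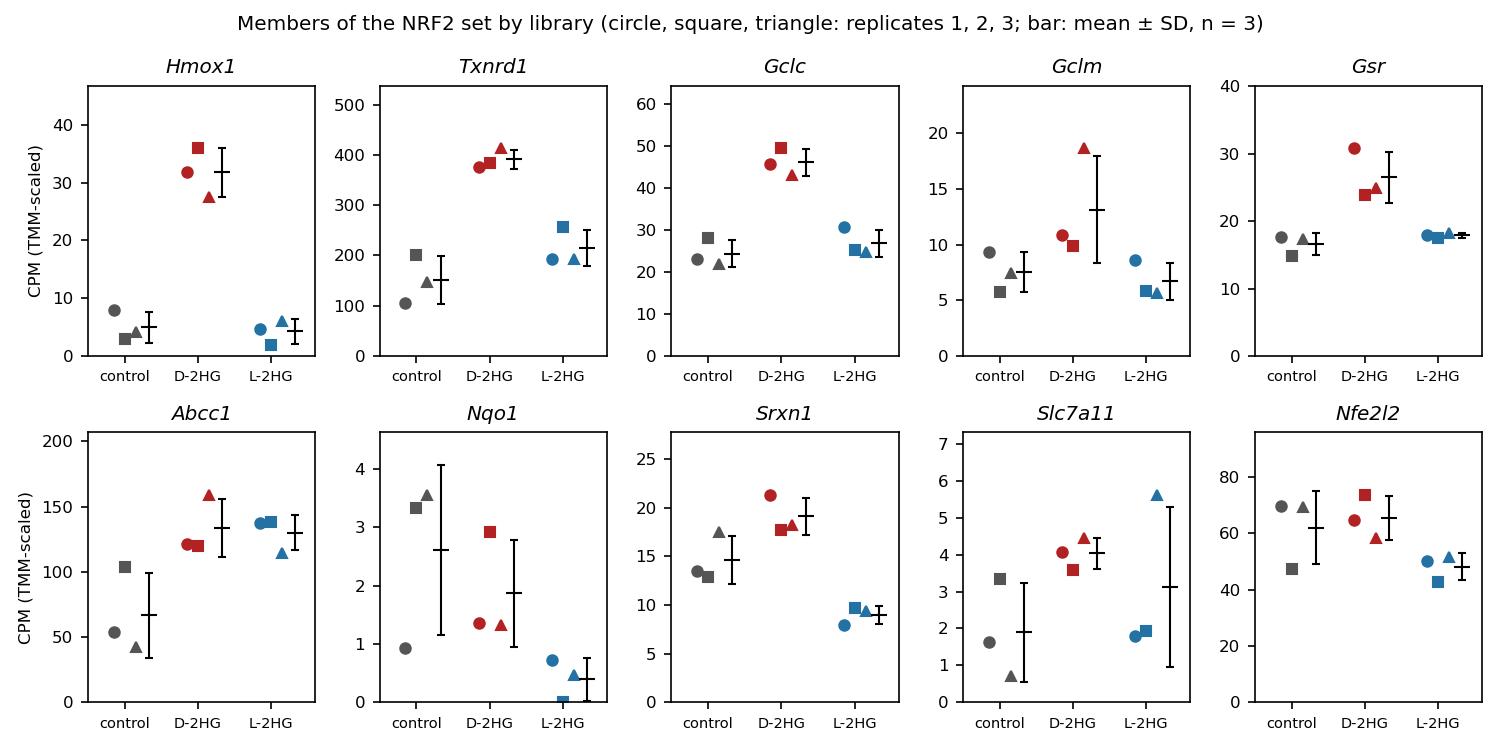
CPM (vertical axis, TMM-scaled, from 0) of each of the 10 genes in the 9 libraries, grouped by treatment; symbols are libraries and the bar is the mean ± SD of 3. The 3 D-2HG libraries lie at 27.5 to 35.9 CPM of Hmox1, above all control and L-2HG libraries, while for Abcc1 both compounds lie above control.

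Hmox1 encodes heme oxygenase 1, which opens the heme ring and yields biliverdin, iron and carbon monoxide (ENSMUSG00000005413, chromosome 8, 75093621 to 75100589, plus strand, mm10). Its level was 7.92, 2.86 and 4.10 CPM in control replicates 1, 2 and 3, from 34, 6 and 23 counts. It was 31.8, 35.9 and 27.5 CPM with D-2HG (94, 160 and 62 counts) and 4.68, 1.94 and 6.08 CPM with L-2HG (13, 1 and 13 counts). The lowest D-2HG library was above the highest library of either other group, and control and L-2HG overlapped. The mean rose from 4.96 ± 2.64 to 31.8 ± 4.20 CPM with D-2HG (SD, n = 3), a log2 fold change of 2.62 ± 0.33 (SE; adjusted p by edgeR = 6.32e-05). With L-2HG the mean was 4.23 ± 2.11 CPM, and the difference from control of -0.08 (95% interval -0.98 to 0.81) did not pass (edgeR adjusted p = 0.906). The level with D-2HG was 6.49 times that with L-2HG (95% interval 3.75 to 11.3; edgeR adjusted p = 0.00172). Of the 10 genes, Hmox1 alone passed this test of the enantiomers, and it passed in each of the 19 alternatives in which it was tested (log2 fold change 2.59 to 2.99). At 6 h and 20 mM each, then, the change in configuration at 1 carbon went with a different Hmox1 level.

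Macrophages of the spleen express Hmox1, so their markers were read beside it. The summed level of 9 macrophage and monocyte markers was 5.13 to 10.5 CPM in control, 4.49 to 10.7 CPM with D-2HG and 5.40 to 26.7 CPM with L-2HG. Spic, the factor of macrophages that recycle red cells, had no count in any D-2HG library, which allows up to 0.674 to 1.33 CPM in each by counting error. It had 4 counts in control replicate 2, 15 in L-2HG replicate 3 and none in the other libraries. Adgre1, the F4/80 antigen, had 3, 0 and 0 counts with D-2HG and 1, 2 and 0 in control. Csf1r, the receptor for the macrophage growth factor, went the other way, at 2.37, 1.12 and 2.67 CPM with D-2HG (7, 5 and 6 counts) against 0.233, 0 and 1.07 CPM in control (1, 0 and 6 counts), without overlap. Vcam1 had 8, 1 and 3 counts with D-2HG against 2, 2 and 0 in control, and Cd14 had 2 counts, both in D-2HG replicate 3. Cd68 was lower in each D-2HG library (2.25 to 3.55 CPM) than in control (3.96 to 4.98 CPM). Apart from Cd68 these markers were too low for the count filter, and their part in the Hmox1 difference was not tested. Reads expected at Hmox1 from genomic DNA, scaled from the reads in sensory receptor genes that T cells keep silent, were 0.86 to 0.97 per D-2HG library, beside 62 to 160 counts there. In L-2HG replicate 3, 2.10 such reads were expected beside 13 counts. The summed level of 5 erythroid markers, a sign of red cell RNA, was 273 to 303 CPM in control, 345 to 626 CPM with D-2HG and 266 to 590 CPM with L-2HG, and its part in the Hmox1 difference was not tested.

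Txnrd1 encodes the cytosolic thioredoxin reductase, which uses NADPH to return thioredoxin to its reduced form (ENSMUSG00000020250, chromosome 10, 82833951 to 82897712, plus strand). It was at 105, 202 and 147 CPM in control replicates 1, 2 and 3, at 377, 384 and 413 CPM with D-2HG and at 194, 256 and 194 CPM with L-2HG. All D-2HG libraries stood above all others, and the L-2HG range overlapped the upper part of the control range, where replicate 2 was highest. The mean rose from 151 ± 48.6 to 392 ± 19.3 CPM with D-2HG, a log2 fold change of 1.38 ± 0.22 (SE; adjusted p by edgeR = 0.000795). With L-2HG the mean was 214.5 ± 36.2 CPM, and the log2 difference from control of 0.50 (95% interval 0.03 to 0.96) did not pass (edgeR adjusted p = 0.113). The log2 difference of D-2HG over L-2HG was 0.88 (95% interval 0.42 to 1.35) and did not pass over all genes (edgeR adjusted p = 0.123), although the ranges did not overlap. It passed in 7 of 20 alternatives, among them DESeq2 (adjusted p = 0.00401), limma-voom (0.000449), and edgeR without control replicate 1 (0.0391) or control replicate 2 (0.00881). Without control replicate 2 the change with L-2HG passed too, at a log2 fold change of 0.71 (edgeR adjusted p = 0.00770); Nfe2l2 then passed as lower with L-2HG (-0.53; 0.0484). The change with D-2HG passed in all 20 alternatives (log2 fold change 1.05 to 1.62).

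Srxn1 encodes sulfiredoxin, which repairs overoxidised peroxiredoxins and stands in the same thioredoxin branch (ENSMUSG00000032802, chromosome 2, 152105516 to 152111376, plus strand). Its levels were 13.5, 12.9 and 17.4 CPM in control (SD 2.48), 21.3, 17.7 and 18.2 CPM with D-2HG and 7.91, 9.71 and 9.36 CPM with L-2HG. The 3 groups did not overlap, with D-2HG on top and L-2HG lowest, and the gap between control and D-2HG was small. No comparison passed: the log2 difference from control was 0.37 with D-2HG (95% interval -0.18 to 0.91; edgeR adjusted p = 0.302) and -0.75 with L-2HG (-1.39 to -0.11; 0.0836). D-2HG over L-2HG gave 1.12 (0.48 to 1.75; edgeR adjusted p = 0.193). The lower value with L-2HG passed by limma-voom (adjusted p = 0.00519), under DESeq2 size factors (edgeR, 0.0488) and without control replicate 2 (edgeR, 0.0385), and the difference between the compounds by limma-voom (adjusted p = 0.0203).

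Glutathione is made from cysteine in steps led by the glutamate-cysteine ligase, of which Gclc encodes the catalytic and Gclm the modifier subunit. Gclc (ENSMUSG00000032350, chromosome 9, 77754535 to 77794485, plus strand) was at 23.1, 28.1 and 21.9 CPM in control, 45.7, 49.4 and 43.1 CPM with D-2HG and 30.6, 25.2 and 24.8 CPM with L-2HG. The D-2HG libraries stood apart and the other two groups overlapped. The log2 fold change with D-2HG was 0.94 ± 0.22 (SE; adjusted p by edgeR = 0.00903), and with L-2HG the difference was 0.18 (95% interval -0.31 to 0.67; edgeR adjusted p = 0.607). The D-2HG call was lost without control replicate 3 (edgeR adjusted p = 0.0718), with no count filter (0.0889) and with the satellite share as a covariate (0.148), where its value was 0.90. D-2HG over L-2HG gave 0.76 (95% interval 0.28 to 1.24) and did not pass (edgeR adjusted p = 0.305).

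Gclm (ENSMUSG00000028124, chromosome 3, 122245557 to 122270732, plus strand) was at 9.32, 5.72 and 7.48 CPM in control, 10.8, 9.88 and 18.7 CPM with D-2HG and 8.63, 5.83 and 5.62 CPM with L-2HG. The D-2HG libraries were again the 3 highest, but replicate 3 was far above the other two, and the log2 difference from control of 0.74 (95% interval 0.03 to 1.46) did not pass (edgeR adjusted p = 0.116). Without the library with the highest satellite share in each group, D-2HG replicate 3 among them, it was 0.28. Gclm rests on 251 counts over all libraries, and its exons overlap those of Gm17494 and Gm6061 over 296 and 244 bases. Reads expected at Gclm from genomic DNA were 3.08 to 3.48 per D-2HG library, beside 32 to 44 counts. In L-2HG replicate 3, 7.55 were expected beside 12 counts. Gsr, encoding glutathione reductase (ENSMUSG00000031584, chromosome 8, 33652523 to 33698163, plus strand), was at 17.7, 14.8 and 17.3 CPM in control, 30.8, 23.8 and 24.9 CPM with D-2HG and 18.0, 17.5 and 18.2 CPM with L-2HG. No D-2HG library overlapped another group, and the log2 fold change of 0.66 ± 0.24 (SE) lay at the threshold (edgeR adjusted p = 0.0500 after rounding up from below). The call was lost in 15 of 20 alternatives, among them each library left out in turn except L-2HG replicate 2 (edgeR adjusted p from 0.0526 to 0.207).

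Slc7a11 encodes the cystine importer of the xCT transporter, a target shared by NRF2 and ATF4 (ENSMUSG00000027737, chromosome 3, 49892526 to 50443614, minus strand). It had 7, 7 and 4 counts in control, 12, 16 and 10 counts with D-2HG and 5, 1 and 12 counts with L-2HG. Its exons add up to 13922 bases, and the reads expected there from genomic DNA were 2.96 to 4.11 in control, 6.82 to 7.70 with D-2HG and 1.88 to 16.7 with L-2HG. Counts and expected reads were thus of the same order in every group. The log2 difference with D-2HG was 1.26 (95% interval -0.04 to 2.56; edgeR adjusted p = 0.139), and with L-2HG 1.01 (-0.44 to 2.45; 0.295). Limma-voom called both, at 2.07 and 1.41 (adjusted p = 0.000970 and 0.0486). Nqo1, encoding the quinone reductase that is a standard reporter of NRF2 in other tissues (ENSMUSG00000003849, chromosome 8, 107388225 to 107403206, minus strand), had 4, 7 and 20 counts in control, 4, 13 and 3 counts with D-2HG and 2, 0 and 1 counts with L-2HG. All 3 L-2HG libraries lay below the control and the D-2HG libraries in CPM, although the zero in L-2HG replicate 2 allows up to 5.83 CPM by counting error, more than any library of the other groups held. Fitted without the count filter, Nqo1 with L-2HG was at a log2 difference from control of -2.40 (95% interval -4.34 to -0.46; edgeR unadjusted p = 0.0152), which did not pass over all genes (edgeR adjusted p = 0.161). With D-2HG it was at -0.51 (-1.94 to 0.92; edgeR adjusted p = 0.783), and D-2HG over L-2HG gave 1.89 (-0.11 to 3.89; 0.732). These values rest on 31, 20 and 3 counts in control, D-2HG and L-2HG libraries. Reads expected at Nqo1 from genomic DNA were 0.89, 0.21 and 1.86 in L-2HG replicates 1, 2 and 3, of the order of its counts there.

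Abcc1 encodes the pump MRP1, which exports glutathione conjugates (ENSMUSG00000023088, chromosome 16, 14361558 to 14475737, plus strand). It was at 53.8, 104 and 42.4 CPM in control replicates 1, 2 and 3, at 121, 120 and 159 CPM with D-2HG and at 137, 138 and 115 CPM with L-2HG. Every library of either compound was above every control, the compounds overlapped, and control replicate 2 was close to the lowest treated library. Abcc1 rose with D-2HG by a log2 fold change of 1.02 ± 0.26 and with L-2HG by 0.98 ± 0.27 (SE; adjusted p by edgeR = 0.0138 and 0.0227). The difference between the compounds was 0.04 on the log2 scale (95% interval -0.51 to 0.59; edgeR adjusted p = 0.990), an interval that leaves room for about 1.5-fold either way, from 0.704 to 1.51 times. Among the controls the share of counts in satellite repeats had the order of Abcc1, as replicate 2 held 5.35% against 1.43% and 0.910% in replicates 1 and 3. D-2HG libraries kept this order (6.83%, 3.79% and 17.0% in replicates 1, 2 and 3), although replicates 1 and 2 were close in Abcc1. L-2HG libraries did not, as replicate 3, the lowest in Abcc1, held 7.98% against 6.71% in replicate 1 and 24.4% in replicate 2. With the satellite share as a covariate the log2 values of Abcc1 were 0.48 and 0.33 and neither passed (edgeR adjusted p = 0.411 and 0.790). Every L-2HG library held a higher share than any control, as did D-2HG replicates 1 and 3. This fit therefore cannot fully separate the share from treatment. Under the same covariate Hmox1 and Txnrd1 passed with D-2HG, at 3.11 and 1.05 (edgeR adjusted p = 3.76e-05 and 0.0114). The D-2HG call of Abcc1 was lost without control replicate 1, control replicate 3 or D-2HG replicate 3 (edgeR adjusted p = 0.0738, 0.101 and 0.0694). Its L-2HG call was lost without control replicates 1 or 3 or L-2HG replicates 1 or 2 (0.102, 0.136, 0.0850 and 0.0513), with no count filter (0.0900) and with only the groups compared in the fit (0.0615). Without control replicate 2 the log2 fold changes were 1.45 and 1.40.

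**Figure D2:**
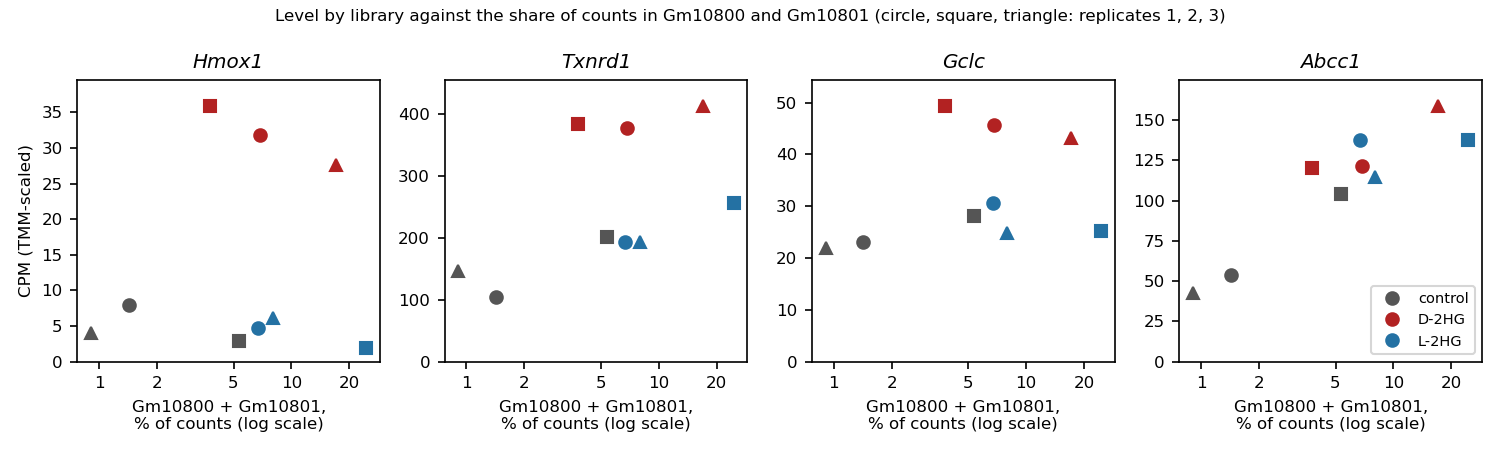
CPM of 4 genes (vertical axes, from 0) against the share of counts in Gm10800 and Gm10801 (horizontal axes, percent on a log scale) in the 9 libraries, coloured by group. D-2HG libraries stand apart from L-2HG libraries of like satellite share for Hmox1, Txnrd1 and Gclc, while for Abcc1 control replicate 2, at 5.35%, lies near the treated libraries.

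Nfe2l2, the gene of NRF2 itself (ENSMUSG00000015839, chromosome 2, 75675513 to 75704641, minus strand), was at 69.7, 47.2 and 69.3 CPM in control, 64.6, 73.7 and 58.2 CPM with D-2HG and 50.4, 42.7 and 51.5 CPM with L-2HG. The D-2HG range overlapped that of control in part, with D-2HG replicate 2 above every control, and the L-2HG libraries lay below the D-2HG ones. The log2 difference was 0.07 with D-2HG (95% interval -0.37 to 0.51; edgeR adjusted p = 0.823) and -0.35 with L-2HG (-0.82 to 0.11; 0.254). The interval with D-2HG allows a level from 0.775 to 1.43 times that of control. The sign with D-2HG turned under DESeq2 size factors (-0.01). D-2HG over L-2HG gave 0.42 (-0.04 to 0.89; edgeR adjusted p = 0.767). Since NRF2 is set mainly by the stability of the protein, its RNA is not a measure of its activity.

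**Figure D3:**
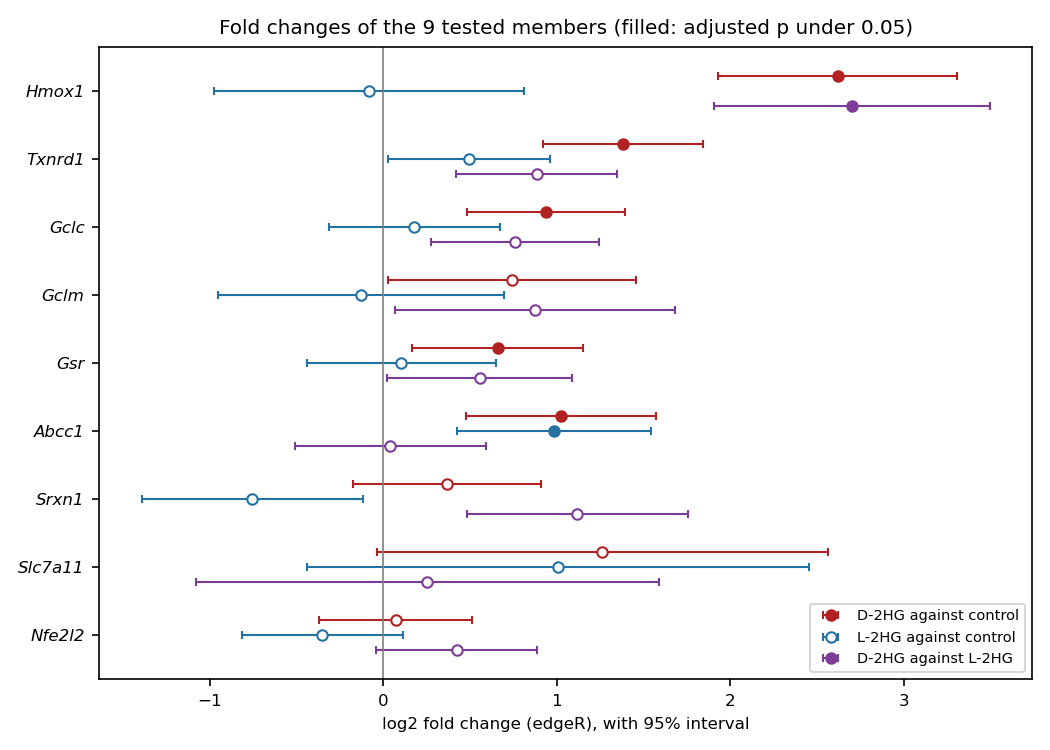
Log2 fold change (horizontal axis, edgeR, with the 95% interval) of the 9 tested genes in the 3 comparisons; filled points have an adjusted p under 0.05. Hmox1 has both D-2HG comparisons filled and its L-2HG value at -0.08, and Abcc1 has both compounds filled at 1.02 and 0.98.

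Levels per kilobase of exon rest on the merged length of all annotated exons of a gene, whichever transcript the cells use. Set side by side between genes with that limit, they put Txnrd1 first in each group. In control it stood at 21.3 ± 6.86 CPM per kilobase (SD, n = 3), followed by Nfe2l2 at 16.4 ± 3.39, which does not differ from it beyond their spread. Gclc (6.47 ± 0.879), Gsr (6.02 ± 0.574), Srxn1 (5.18 ± 0.879) and Abcc1 (4.42 ± 2.17 CPM per kilobase) came next, within each other's spread from one to the next. Hmox1 was seventh in control at 2.83 ± 1.51 CPM per kilobase, above Nqo1, Gclm and Slc7a11, and seventh with L-2HG at 2.42 ± 1.20. With D-2HG it was second at 18.1 ± 2.40 CPM per kilobase, beside Nfe2l2 at 17.3 ± 2.05 and below Txnrd1 at 55.3 ± 2.73. Slc7a11 was lowest in each group, at 0.136 ± 0.0957 CPM per kilobase in control, where its counts were of the order of the expected genomic reads.

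A wider list of 65 genes of the pathway, the 10 above included, was read by role, and 44 of them were tested. Outside the 10, 35 were tested: 4 rose and 2 fell with D-2HG, 2 rose and 5 fell with L-2HG, and none differed between the compounds by edgeR or DESeq2 (at an unadjusted p under 0.05, 4 were higher with D-2HG by edgeR and 6 by DESeq2, and none lower; limma-voom called 2 higher). DESeq2 called 3 higher and 3 lower with D-2HG and 2 higher and 10 lower with L-2HG, over all 55 listed. Limma-voom called 7 higher and 10 lower with D-2HG and 4 higher and 15 lower with L-2HG. Among all tested genes 11.8% rose with D-2HG and 9.48% with L-2HG by edgeR. By the same test 10.5% fell with D-2HG and 8.38% with L-2HG, and 0.254% were lower with D-2HG than with L-2HG. The median log2 fold change of the 35 was -0.09 with D-2HG and -0.27 with L-2HG.

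Among the regulators, Mafg and Mafk, small MAF partners of NRF2 and BACH1, rose with D-2HG. Mafg went from 86.7, 80.6 and 87.8 CPM in control to 144, 160 and 163 CPM, a log2 fold change of 0.87 ± 0.19 (SE; adjusted p by edgeR = 0.00644), and was at 127, 115 and 93.1 CPM with L-2HG. The treated libraries of both compounds lay above the controls, with those of D-2HG on top. Mafk rose by 0.70 (edgeR adjusted p = 0.0245). With L-2HG the differences were 0.39 for Mafg and 0.28 for Mafk, not past the threshold. Rbx1, the RING subunit of the ligase that carries KEAP1, fell by 0.78 with D-2HG and by 0.72 with L-2HG (edgeR adjusted p = 0.0193 and 0.0339). Keap1 itself differed by 0.32 and -0.17 and Bach1 by 0.13 and 0.60 with D-2HG and L-2HG, none past the threshold. Of the other exporters of conjugates and organic anions, Abcc4 and Abcc5 rose with both compounds like Abcc1. Abcc5 rose by 1.02 and 0.97 (edgeR adjusted p = 0.00951 and 0.0194) and Abcc4 by 0.62 and 0.74 (0.0388 and 0.0286), so that all 3 tested exporters rose with each compound by edgeR, where 11.8% and 9.48% of all tested genes rose. DESeq2 called all 3 with L-2HG but not Abcc4 with D-2HG (adjusted p = 0.0533). Abcc2 and Abcc3 were below the count filter. Nuclear RNAs outside the pathway, read for library quality, rose with both compounds too. Neat1 rose by 0.90 with D-2HG and 0.97 with L-2HG (edgeR adjusted p = 0.0128 and 0.0152), and Kcnq1ot1 by 0.91 and 0.75 (0.0144 and 0.0383). Malat1, at -0.15 and 0.05, did not pass. A link between these rises and those of the exporters was not tested.

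Of the tested genes that spend glutathione or supply NADPH, none passed as higher with either compound by edgeR, DESeq2 or limma-voom. Of 4 tested genes of glutathione use, Gpx1, the main cytosolic glutathione peroxidase, fell by 0.78 with D-2HG and by 0.79 with L-2HG (edgeR adjusted p = 0.0305 and 0.0380), and the others did not pass. Of 5 tested genes of NADPH supply, Tkt, the transketolase of the pentose phosphate pathway, fell by 0.89 with L-2HG (edgeR adjusted p = 0.0150) and was at -0.54 with D-2HG (0.0648). DESeq2 and limma-voom each called 3 genes of NADPH supply lower with L-2HG. Over all genes DESeq2 called 1439 of 10282 lower with L-2HG, and limma-voom 2341 of 10235. Slc3a2, the heavy chain that carries Slc7a11 and other transporters, fell by 0.68 with L-2HG (edgeR adjusted p = 0.0380). Of 6 tested genes of quinone and carbonyl detoxification none passed by edgeR in either comparison with control. At an unadjusted p under 0.05 by edgeR, 1 was lower with each compound. Limma-voom called 3 lower with each compound, and DESeq2 1 lower with L-2HG. Over all 10235 tested genes limma-voom called 2641 lower with D-2HG and 2341 with L-2HG. Of the genes downstream of Hmox1, Blvra, the biliverdin reductase, fell by 0.84 with L-2HG (edgeR adjusted p = 0.0469). The ferritin chains that store the iron released from heme, Ftl1 and Fth1, stood at 0.60 and 0.31 with D-2HG and at -0.11 and -0.22 with L-2HG on the log2 scale, none past the threshold. Ferritins and Gpx1 have near-identical copies elsewhere in the genome, so the split of their reads is uncertain. Transcripts encoded by mitochondria took 2.23% to 3.06% of counts in control, 0.992% to 1.87% with D-2HG and 1.19% to 1.83% with L-2HG, and the part of this difference in the falls above was not tested. With the satellite share as a covariate none of the named calls of the wider list outside the 10 genes passed, with either D-2HG (edgeR adjusted p = 0.0603 to 0.745) or L-2HG (0.591 to 0.926). Of the 6 with D-2HG, only that of Mafg passed with each library left out, and it was lost with no count filter. Those of Rbx1, Mafk, Gpx1 and Abcc4 were lost without control replicate 1 (edgeR adjusted p = 0.109 to 0.184) and, with Abcc5, without control replicate 3 (0.0630 to 0.130) or D-2HG replicate 1 (0.0509 to 0.0940). Leaving out D-2HG replicate 2 or 3 ended the same 4 calls (up to 0.140 and 0.101), and Abcc4 lost its call without L-2HG replicate 1 (0.0601). The 7 named calls of this list with L-2HG were all lost in a fit of only the 2 groups compared (edgeR adjusted p = 0.0506 to 0.111), and 4 of them without TMM and 4 with genomic reads subtracted (up to 0.0878 and 0.115). All 7 were also lost without control replicate 1, control replicate 3 or L-2HG replicate 1 (up to 0.185, 0.146 and 0.120). Without L-2HG replicate 2, 6 of them were lost (up to 0.114), and 4, 2 and 1 without D-2HG replicates 1, 2 and 3 (up to 0.0606, 0.0558 and 0.0527).

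**Figure D4:**
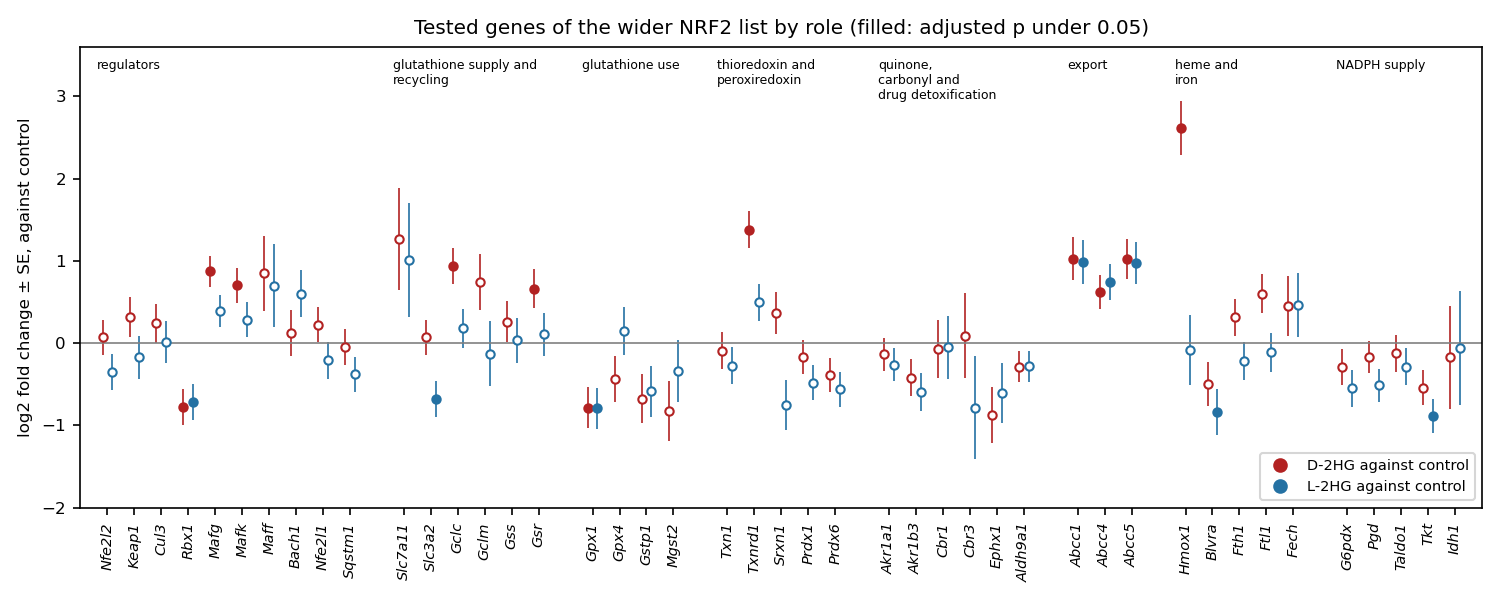
Log2 fold change ± SE against control (vertical axis) of the 44 tested genes of the wider list, by role, D-2HG in red and L-2HG in blue; filled points have an adjusted p under 0.05. Hmox1 at 2.62 and Txnrd1 at 1.38 with D-2HG stand above the other filled points, and the 3 exporters are filled for both compounds.

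The genes most like Hmox1 and Txnrd1 in pattern were sought over the 9 libraries, by the mean absolute difference between log2 CPM profiles set to their own control mean. For Hmox1 these were Mast1, Mir22hg and Gtse1, at 0.71, 0.72 and 0.77 log2 units, against a median of 1.25 over 8404 genes. The measure also grows with a difference in the size of the change and with counting noise. It therefore does not tell whether a gene with a smaller change followed Hmox1. Mir22hg, the host transcript of a microRNA, averaged 10.1 ± 3.84 CPM in control, 25.3 ± 4.46 CPM in D-2HG and 7.50 ± 3.15 CPM in L-2HG libraries. For Txnrd1 the nearest were Cep76, Bicd2 and Cdc7, at 0.17, 0.18 and 0.18 log2 units against a median of 0.81. Cdc7, a kinase that fires replication origins, averaged 15.1 ± 6.60 CPM in control, 30.6 ± 2.33 in D-2HG and 22.4 ± 2.80 in L-2HG libraries.

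**Figure D5:**
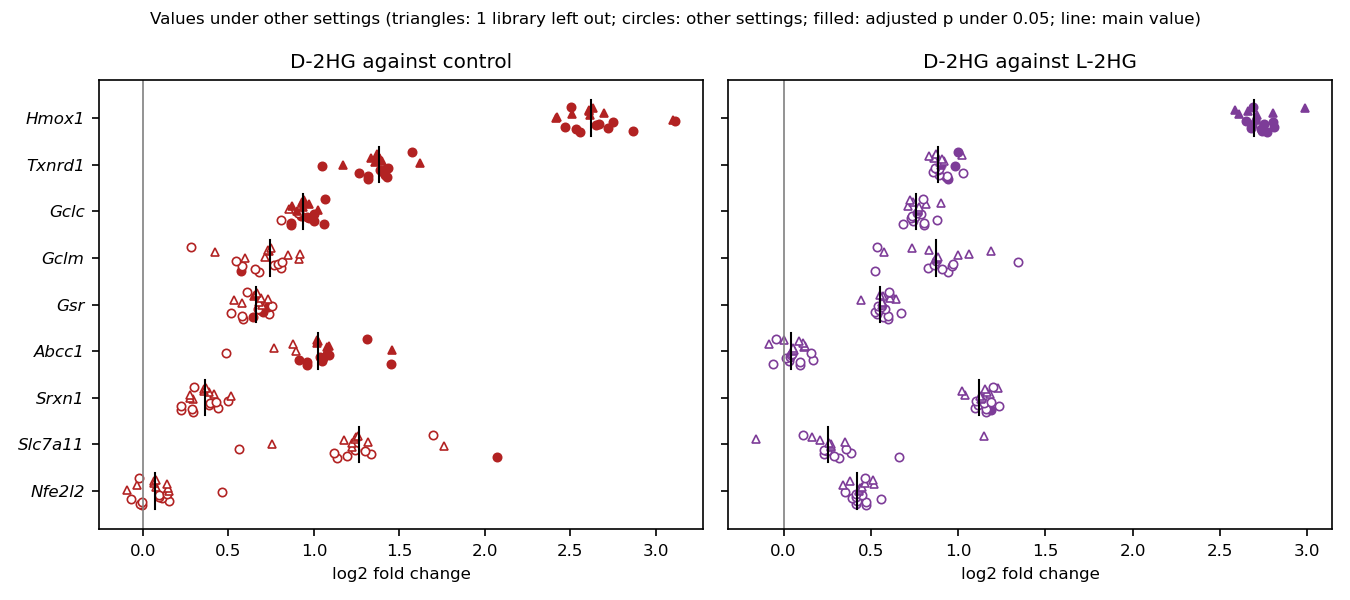
Log2 fold change (horizontal axes) of the 9 tested genes under each alternative setting, for D-2HG against control and against L-2HG; triangles leave out 1 library, circles are other settings, filled symbols have an adjusted p under 0.05 and the line is the value reported. Hmox1 is filled throughout both panels, with values from 2.42 to 3.11 against control, whereas the symbols of Nfe2l2 lie on both sides of 0 in the left panel.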

How the data were processed

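Polyadenylated RNA was primed with oligo(dT), amplified and cut by transposase, per the labels' protocols, a method that keeps no strand. The authors deposited raw counts per gene symbol, made with STAR 2.7.3a and featureCounts on mm10 per the submitters' processing notes; settings are not given in the sources used here. A second deposited table of the same libraries was not used here.

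Tests used edgeR 4.0.16 in R 4.3.3 (filterByExpr, minimum count 10; TMM; robust quasi-likelihood fit of 1 mean per group, 6 residual degrees of freedom), which was tested on simulated data. Limma 3.58.1 and DESeq2 1.42.0 served as alternatives. Standard errors are the log2 fold change over the root of F, and intervals are 95%, for single genes. The intervals come from this fit and include the spread among these libraries. Limits for a count of 0 (3 counts) cover counting error only. Chi-square per degree of freedom between replicates was 5.26 to 34.6, above sampling noise. Positions and exon lengths came from GENCODE M21 (53009 of 55011 symbols matched). Expected genomic reads came from 1657 sensory receptor genes, without the 5% with the most reads per base.

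The 10 genes, the wider list, the markers and the tests were chosen with earlier results of these data known. Named beyond the 10 were the genes of the wider list past the threshold in any comparison, at most 3 per role by adjusted p, and the 3 genes nearest Hmox1 and Txnrd1 in pattern (mean of at least 5 CPM, no predicted gene; log2 CPM with a prior count of 2). Keap1, Bach1, Ftl1, Fth1, Neat1, Kcnq1ot1, Malat1 and the single cell type markers were named after their values were seen. Alternatives were DESeq2, limma-voom with quality weights, DESeq2 size factors, no TMM, no filter, a mean count of at least 50, only the groups compared, a replicate block, genomic reads subtracted, the satellite share as covariate and each library left out. Leaving out the library with the highest satellite share in each group was chosen after seeing the data.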

Additional observations from a re-analysis of the deposited data

How the results depend on the processing

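Numbers of genes past the threshold depended strongly on the libraries in the fit. For D-2HG against control 2279 genes passed, with 5617 by limma-voom, 1341 with no count filter, 96 with the satellite share as covariate, 4493 without the library of highest satellite share in each group, and 388 to 4257 with 1 library left out. For L-2HG against control 1828 passed, with 5181 by limma-voom, 427 with only the 2 groups compared, 672 with genomic reads subtracted, 8 with the covariate, 4378 without the high-satellite libraries and 65 to 4108 with 1 library left out. For D-2HG against L-2HG 31 passed, with 49 by DESeq2, 177 by limma-voom, 76 with the covariate, 165 without the high-satellite libraries and 10 to 60 with 1 library left out. Of the genes that passed, 52.9% and 53.1% were higher with D-2HG and L-2HG against control; it was 43.8% and 36.2% under DESeq2 size factors, and 68.6% and 74.3% without TMM, where the median of all genes with L-2HG moved from 0.05 to 0.13 on the log2 scale. Of the 10 genes, 5 passed with D-2HG, 3 with no filter, 2 with the covariate and 2 to 5 with 1 library left out. With L-2HG 1 passed, 5 by limma-voom, 2 under DESeq2 size factors, 0 with no filter, 0 with only the 2 groups compared, 0 with the covariate, 3 without the high-satellite libraries and 0 to 4 with 1 library left out. Between the compounds 1 passed, 2 by DESeq2, 3 by limma-voom, 2 with only the 2 groups compared, 2 with the covariate, 2 without the high-satellite libraries, 1 to 2 with 1 library left out and 0 at a mean count of at least 50, where Hmox1 (mean 45.1) was not tested.

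With the replicate number as a block 2314, 2284 and 35 genes passed in the 3 comparisons, and of the 10 genes 4, 1 and 1, as Gsr lost its call (edgeR adjusted p = 0.0600). The numbers share no stated source, and same-numbered libraries deviated together in only 2 of 9 pairs (correlation over 0.1; range -0.17 to 0.28).

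Signs turned only where no call stood in the comparison concerned. With D-2HG, Nfe2l2 turned to -0.0080 by DESeq2, -0.0176 by limma-voom, -0.0079 under DESeq2 size factors, -0.0708 with no filter, -0.0235 without the high-satellite libraries and lay from -0.0956 to 0.1508 with 1 library left out. In the same order Slc3a2 turned to -0.0111, -0.0213, -0.0109, -0.0822 and -0.1854 and lay from -0.1223 to 0.2205, and Blvra turned to 0.0964 with the covariate. With L-2HG, Hmox1 turned to 0.1240 by limma-voom, 0.0410 without TMM and 0.4658 with the covariate, and lay from -0.3548 to 0.3942 with 1 library left out. Gsr turned to -0.0169 by DESeq2, -0.0174 under its size factors and -0.1577 with no filter, Gclc to -0.0718 with no filter and Nfe2l2 to 0.1114 with the covariate. Gclm turned to 0.0501 by limma-voom and lay from -0.4556 to 0.0315 with 1 library left out. Between the compounds, Abcc1 turned to -0.0588 by limma-voom and -0.0421 without the high-satellite libraries, Rbx1 to 0.0713 and Abcc4 to 0.0157 with no filter. Gpx1 turned to -0.0192 at a mean count of at least 50, -0.0012 with only the 2 groups compared, -0.0379 with genomic reads subtracted, -0.0752 with the covariate and -0.0961 without the high-satellite libraries. With 1 library left out these lay from -0.0825 to 0.1254 for Abcc1, -0.176 to 0.1053 for Rbx1 and -0.1265 to 0.3073 for Gpx1, as did Abcc5 from -0.1175 to 0.2644 and Slc7a11 from -0.1600 to 1.1506. The causes were not tested.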
